A study of Mus musculus with 40 samples.

Results

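The proteasome subunit genes are followed here through 4 bone marrow B-cell fractions of WT and Slc39a7 mutant origin. They are the rows of the deposited count table that map to protein-coding symbols starting with Psma, Psmb, Psmc, Psmd, Psme, Psmf or Psmg and a digit, which gave 50 of 21958 genes. The rule uses names and no measured value. It also admits Psmc3ip, a recombination cofactor that is no subunit, and the copy Psme2b.

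The proteasome is the large protease that degrades ubiquitin-tagged proteins in the cytosol and nucleus. Its core is a barrel of alpha subunits (Psma) at the ends and beta subunits (Psmb) in the middle, and the cutting sites lie in Psmb5, Psmb6 and Psmb7. Cells of the immune system, and most cells exposed to interferon gamma, build Psmb8, Psmb9 and Psmb10 in their place, which makes the immunoproteasome and favours peptides suited to MHC class I. The regulatory cap has a base of ATPases (Psmc) and a lid (most Psmd) that bind, open and thread the substrate. Other caps are PA28 alpha and beta (Psme1, Psme2), nuclear PA28 gamma (Psme3) and nuclear PA200 (Psme4), and Psmf1 encodes an inhibitor.

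The mutant groups came from donor mice carrying the CRISPR/Cas9-made P198A allele of ZIP7 on both chromosomes, and the WT groups from WT donors. ZIP7, the product of Slc39a7, carries zinc out of the endoplasmic reticulum. Both kinds of marrow were grown in lethally irradiated CD45.1 hosts for 8 weeks, so all groups are donor cells in irradiated hosts. No source used here gives the age of the animals. From each of 5 mutant mice (4, 5, 8, 9 and 10) and 5 WT mice (1, 2, 3, 6 and 7), 100 cells were sorted into 1 library of each fraction. FrB is the pro-B gate (B220+ CD43+ CD24+ BP1-), FrD the late pre-B gate (B220+ CD43- IgM- IgD-) and FrE the immature gate (B220+ CD43- IgM+ IgD-). The labels' protocols do not spell out how FrC was gated. Titles call the mutants KO, but the allele is a missense change, so the level of Slc39a7 does not check the labels. It ranged from 0 to 268 CPM in mutant and from 2.15 to 343 CPM in WT libraries, where CPM is counts per 1000000 endogenous counts.

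Totals ran from 42111 (mutant FrE of mouse 9) to 43372070 counts, with a median of 16474388. Genes with only 1 to 9 counts made up over 15% of those detected in 10 libraries. These low-complexity libraries are mutant FrB of mice 4, 8, 9 and 10, mutant FrC of mice 5, 9 and 10, mutant FrE of mouse 9, WT FrD of mouse 3 and WT FrE of mouse 7, which leaves 1 mutant library in FrB and 2 in FrC without them. The list of B-lineage stage markers was detected in all its 13 genes in each group. Summed granulocyte and monocyte markers (12 genes) spanned 2574 to 58680 CPM in mutant FrB and 128 to 11508 CPM in WT FrB. In FrD they spanned 11821 to 22879 CPM in the mutants and 46.3 to 74855 CPM in WT, with WT mouse 3 the highest. In these bulk libraries a change in the makeup of the sorted cells and a change of RNA per cell cannot be told apart.

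Per kilobase of transcript, WT FrB cells carried most RNA of the core. Psma7 was the highest member at 894 ± 106 CPM per kb, followed by the catalytic Psmb6 at 866 ± 104 CPM per kb (SD, n = 5). Psmb8 stood among the highest at 700.4 ± 19.8 CPM per kb. Class medians in WT FrB were 503.1 CPM per kb for the constitutive beta ring, 339.9 for the alpha ring, 314 for the immunoproteasome subunits, 237 for the ATPases and 146 for the lid. The core and cap assembly chaperones (Psmg genes and Psmd5, Psmd9, Psmd10) had medians of 114 and 36.8 CPM per kb. Psme4 was low for a subunit gene at 10.5 ± 2.37 CPM per kb. Psma8, the testis alpha subunit, reached 19.6 CPM at most, and Psmb11, the thymus beta subunit, reached 0.627 CPM at most and never passed the count filter.

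Over the 18 WT libraries of normal complexity, most subunit genes varied little between fractions and mice. The coefficient of variation had a median of 23.9% over 48 members, beside 35.5% over the 4082 genes with a mean of at least 50 CPM. Beyond that floor the members and the other genes were not matched for level. The ubiquitin receptor Psmd4 (15.6%), Psmb9 (15.8%) and Psme1 (16.0%) were the steadiest. Psme4 (73.8%), the lid gene Psmd3 (70.8%), the base gene Psmd2 (56.0%) and Psme3 (46.5%) varied most. As sums, the 14 core genes of the alpha and constitutive beta rings held 4861 ± 2641 CPM in mutant FrB and 8199 ± 465 CPM in WT FrB, and 6061 ± 856 CPM in mutant FrE and 6020 ± 2056 CPM in WT FrE (SD, n = 5 each). The 1 mutant FrB library of normal complexity held 9346 CPM of the core genes, above the WT FrB maximum of 8572 CPM. The 17 cap genes held 3900 ± 487 CPM in mutant FrB and 5294 ± 668 CPM in WT FrB, and 3760 ± 597 CPM in mutant FrE and 3925 ± 885 CPM in WT FrE. In WT the whole family took 1.74%, 1.84%, 1.49% and 1.43% of the counts in FrB, FrC, FrD and FrE, and in the mutants it took 1.18%, 1.44%, 1.45% and 1.34%. In the libraries of normal complexity the mutant shares were 1.77% in FrB (1 library), 1.88% in FrC (2 libraries) and 1.35% in FrE (4 libraries). The WT shares were then 1.64% in FrD and 1.5% in FrE (4 libraries each).

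**Figure D1:**
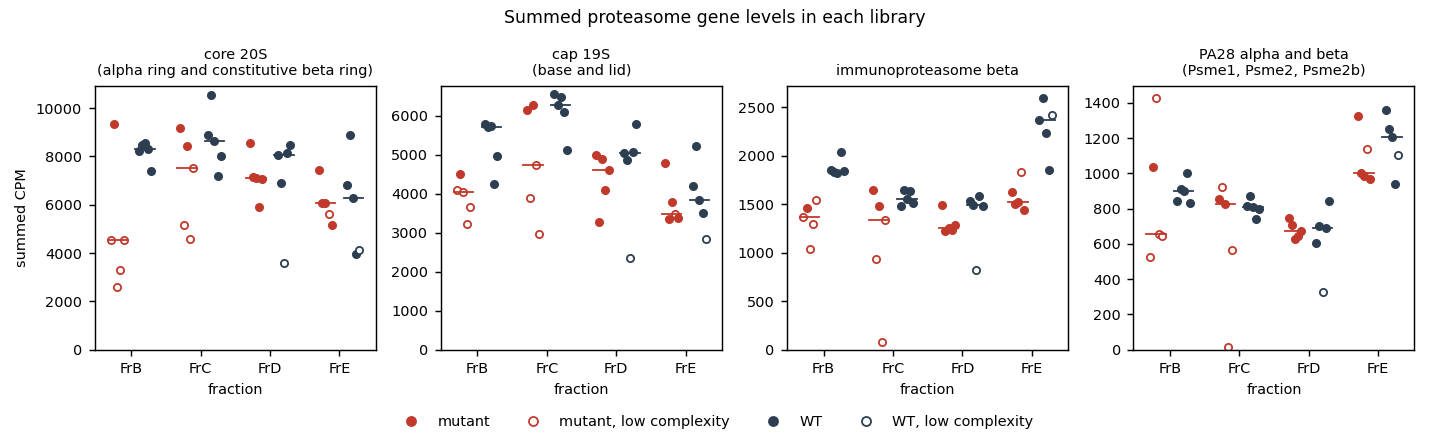
Summed CPM of the core, cap, immunoproteasome and PA28 alpha and beta genes in each library by fraction, mutant left of WT; open points are low-complexity libraries and the line is the median. The immunoproteasome sum lies between 1442 and 1829 CPM in mutant FrE and between 1851 and 2596 CPM in WT FrE.

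By mean along the WT series, Psme4 (PA200) peaked in FrD, Psmb8 and the PA28 beta copy Psme2b were highest in FrE, and Psmd3 was lowest in FrD. The first question is which members change between neighbouring WT fractions, and it was tested with edgeR's quasi-likelihood test over all 11439 genes of the 20 WT libraries, with Benjamini-Hochberg adjustment and a threshold of 0.05. A fold change is on the log2 scale with its SE, later fraction over earlier.

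No member was called from FrB to FrC, where 0.166% of all genes were called. At an unadjusted p under 0.05 there was 1 of 49 (5.04% of all genes), Psme3 with a log2 fold change of 0.71 ± 0.32. DESeq2 called 0 members, with 4 of all 11439 genes higher and 144 lower. The immunoproteasome genes Psmb8, Psmb9 and Psmb10 had log2 fold changes of -0.42 to -0.23, their counterparts Psmb5, Psmb6 and Psmb7 of 0.01 to 0.08. Psme1, Psme2 and Psme4 lay between -0.28 and 0.03.

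From FrC to FrD, 2 of 49 members rose (2.95% of all genes did) and 1 fell (2.28% of all genes did, 5.23% in either direction). The median log2 fold change was -0.25 over members and 0.09 over all genes. Without the low-complexity libraries the medians were -0.07 over members and -0.06 over all genes. Psme4 rose most clearly. PA200, its product, is a single-chain nuclear cap known for the breakdown of acetylated histones and for a role in DNA repair. Its gene lies on chromosome 11 at 30771726 to 30880361, plus strand (mm10, GENCODE M21). Part of its RefSeq promoter window is shown because it holds a match to TGACNNNGC, the core of the antioxidant-type element that NRF1 uses at proteasome genes, here on the opposite strand and in capitals (GRCm38.p6, chr11:30771695-30771779, plus strand, from 80 bases before the start).
Psme4: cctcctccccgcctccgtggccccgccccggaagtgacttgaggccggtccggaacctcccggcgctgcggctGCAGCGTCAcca
The motif was found on either strand in 13.3% of the 45 member windows and in 12.4% of all 32851 windows of the same length. The windows cover 42 of the 50 members, from 250 bases before to 50 after the start.

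Psme4 had 253, 244, 435, 308 and 235 CPM in WT FrD, against 79.7, 62.2, 72.8, 61.1 and 95.7 CPM in WT FrC. The ranges do not overlap. The log2 fold change was 2.31 ± 0.35 (edgeR adjusted p = 0.000371), and 1.94 without the low-complexity libraries. In WT FrE it fell to 83.4, 50.4, 94.0, 51.3 and 29.6 CPM, again with no overlap with FrD, a log2 fold change of -2.39 ± 0.35 (adjusted p = 0.000201). WT FrB held 47.7 to 87.8 CPM, so FrB, FrC and FrE overlap and FrD stands apart. Both steps share the FrD libraries. Scaled to the ERCC spike-in RNA in place of TMM, all genes shifted by a median of -2.39 from FrC to FrD, members by -2.85 and Psme4 by -0.03, so its rise is relative to the other genes. On that scale the FrD to FrE fall was -2.24 (adjusted p = 0.0752).

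**Figure D2:**
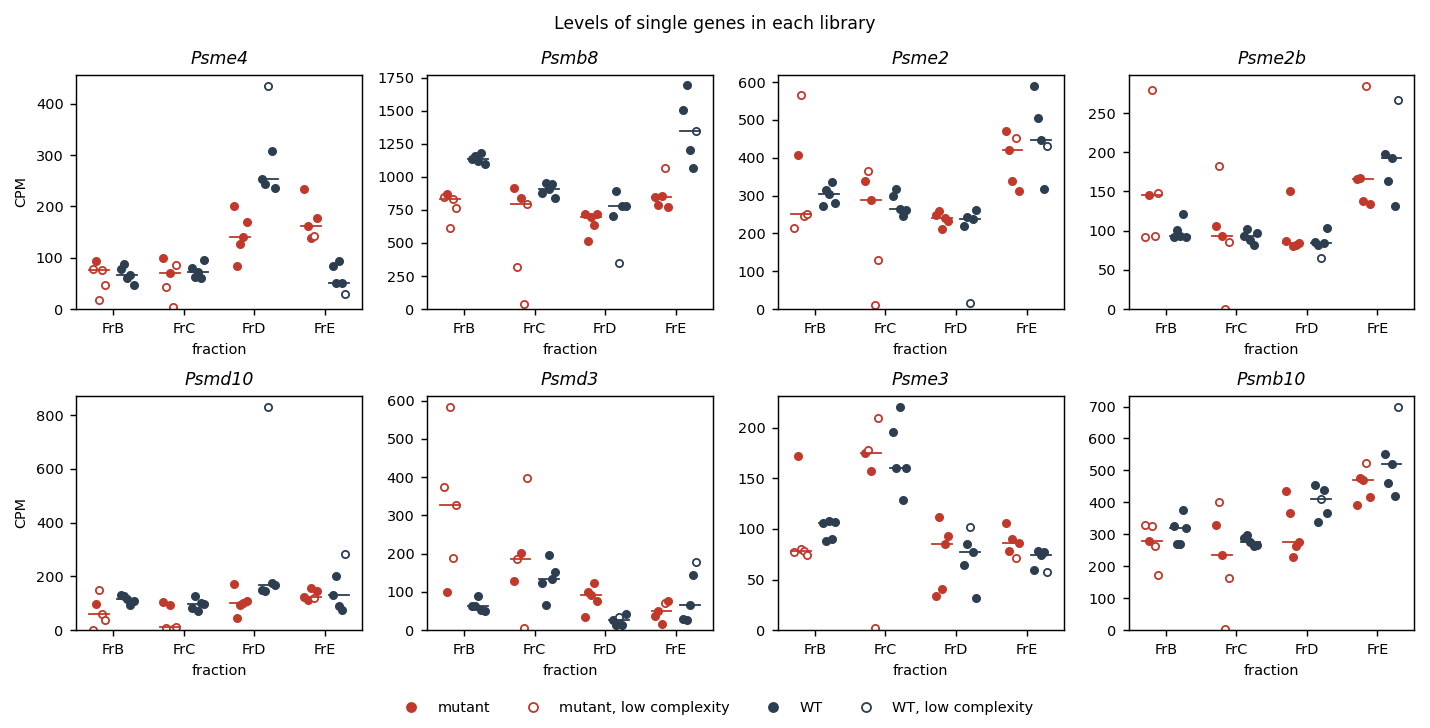
CPM of Psme4, Psmb8, Psme2, Psme2b, Psmd10, Psmd3, Psme3 and Psmb10 in each library by fraction, mutant left of WT, with open points for low-complexity libraries and a line at the median. WT FrD values of Psme4 (235 to 435 CPM) lie above all other groups, and the WT median of Psmb8 is highest in FrE (range 1064 to 1692 CPM).

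Psmd10 (gankyrin, a chaperone of cap assembly; chromosome X, 140948429 to 140956728, minus strand) was the other riser. It had 151, 147, 831, 174 and 166 CPM in WT FrD and 82.4, 126, 71.6, 101 and 96.0 CPM in WT FrC. The groups do not overlap, but the 831 CPM belong to mouse 3, whose FrD library is of low complexity. The log2 fold change was 2.07 ± 0.54 (edgeR adjusted p = 0.0256), 1.72 with mouse as a block (adjusted p = 0.104), 0.80 without mouse 3 (adjusted p = 0.255), and 0.87 without the low-complexity libraries (adjusted p = 0.0241). Leaving out mouse 1, 2 or 6 gave 2.22 to 2.41 with adjusted p of 0.0872, 0.0567 and 0.0550. With all 8 groups in the fit the adjusted p was 0.125, and with ERCC scaling the value was -0.06. Its window just before the start holds CCAAT, the NF-Y box, 2 times on the opposite strand, in capitals (GRCm38.p6, chrX:140956712-140956781, minus strand). CCAAT was present in 33.3% of member windows and in 37.4% of all windows.
Psmd10: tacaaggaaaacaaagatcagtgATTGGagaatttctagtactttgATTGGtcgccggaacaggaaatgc

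The lid gene Psmd3 (chromosome 11, 98682554 to 98695979, plus strand) fell from FrC to FrD. It had 25.4, 13.7, 35.2, 14.0 and 43.4 CPM in WT FrD and 124, 65.8, 196, 132 and 151 CPM in WT FrC, with no overlap. The log2 fold change was -2.03 ± 0.53 (edgeR adjusted p = 0.0268), and -2.31 without the low-complexity libraries (adjusted p = 0.00124). The call was lost without mouse 1, 2, 3 or 6 (log2 fold change -2.11 to -1.82, adjusted p 0.0503 to 0.146), and with all 8 groups in the fit (-2.001, adjusted p = 0.0703). None of the other 7 lid genes was called. In FrE Psmd3 had 27.6 to 177 CPM (1.67 over FrD, adjusted p = 0.0659).

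The other named members were uncalled at this step. Psmb10 had 338 to 454 CPM in FrD and 265 to 299 CPM in FrC, with no overlap (0.79 ± 0.24, adjusted p = 0.0529). Under ERCC scaling, where most members fell, its sign was reversed. Psme3, the nuclear PA28 gamma, had 64.7, 85.1, 102, 77.5 and 31.6 CPM in FrD and 196, 160, 221, 128 and 160 CPM in FrC, also without overlap (-0.96 ± 0.32, adjusted p = 0.0826). Without the low-complexity libraries Psmb10 (0.65, adjusted p = 0.00999) and Psme3 (-1.30, adjusted p = 0.000787) were called, and the count went to 9 of 49 members (16.1% of all genes), with Psme4 and Psmd10 also higher, and Psma7, Psmd2, Psmd3 and the core chaperones Psmg1 and Psmg2 also lower. Psmb5, Psmb6, Psmb7, Psmb8, Psmb9, Psme1 and Psme2 lay between -0.43 and -0.06.

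From FrD to FrE, 2 of 49 members rose (2.88% of all genes did) and 1, Psme4, fell (2.43% of all genes did, 5.32% in either direction). The median log2 fold change was -0.25 over members and 0.01 over all genes. The member median ran from -0.48 without mouse 2 to -0.02 without mouse 7. Under ERCC scaling it was 0.23, with 36 of 49 members above 0, beside 0.29 over all genes. The risers were Psmb8 of the immunoproteasome and Psme2b of the PA28 genes.

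Psmb8 encodes the chymotrypsin-like site of the immunoproteasome (chromosome 17, 34197721 to 34201454, plus strand). Psmb8 had 1503, 1692, 1201, 1064 and 1347 CPM in WT FrE, against 704.1, 895, 349, 781 and 781 CPM in WT FrD. All FrE values lie above all FrD values. The log2 fold change was 0.97 ± 0.21 (edgeR adjusted p = 0.00838), and 0.79 without the low-complexity libraries. The call was lost without mouse 1 (0.91, adjusted p = 0.0764), with all 8 groups in the fit (0.98, adjusted p = 0.0834) and with ERCC scaling (1.34, adjusted p = 0.204). The means of WT FrB (1101 to 1184 CPM) and FrC (842 to 955 CPM) lie between, so Psmb8 had its lowest mean in FrD. The range of FrB overlaps that of FrE, and the range of FrC overlaps that of FrD.

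Plasma cell markers moved with this step: the sum of 8 genes was 1186 to 23615 CPM in WT FrE and 1350 to 1744 CPM in WT FrD, and 3 of the 8 were called higher and 1 lower. Their part in the result was not tested.

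The other immunoproteasome genes were uncalled. Psmb9 had 314 to 509 CPM in FrE and 66.2 to 377 CPM in FrD (0.55 ± 0.28, adjusted p = 0.268), and its gene overlaps Tap1 on the opposite strand, whose reads cannot be told apart without a stated strand setting. Psmb10 had 419 to 699 CPM in FrE and 338 to 454 CPM in FrD (0.37 ± 0.24, adjusted p = 0.402). Their counterparts Psmb5, Psmb6 and Psmb7 had 0.41, -0.31 and -0.53, none called.

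Psme2b, a copy of the PA28 beta gene Psme2 on chromosome 11 (48945354 to 48946190, minus strand), had 198, 163, 192, 131 and 267 CPM in WT FrE and 85.8, 81.5, 64.5, 84.7 and 104 CPM in WT FrD. The groups do not overlap, and the log2 fold change was 1.18 ± 0.28 (edgeR adjusted p = 0.0172). Since 69.3% of its 50-base stretches also occur in Psme2 or another copy, and 59.3% of those of Psme2 likewise, reads could be split between them and both values are uncertain. The call was lost without mouse 1 (1.15, adjusted p = 0.101) or mouse 2 (1.19, adjusted p = 0.0626), with all 8 groups in the fit (adjusted p = 0.171) and with ERCC scaling (adjusted p = 0.194).

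Psme2 itself had 591, 505.9, 447, 317 and 431 CPM in WT FrE and 220.0, 245, 16.3, 237 and 262 CPM in WT FrD (1.28 ± 0.39, adjusted p = 0.0571). The 16.3 CPM are those of mouse 3, and without the low-complexity libraries the value was 0.95 (adjusted p = 0.00414). Psme1 had 0.52 ± 0.20 (adjusted p = 0.116) and Psme3 -0.17 ± 0.32, with overlapping groups for Psme3. None of the 7 alpha ring, 7 constitutive beta ring, 9 base or 8 lid genes was called at this step.

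**Figure D3:**
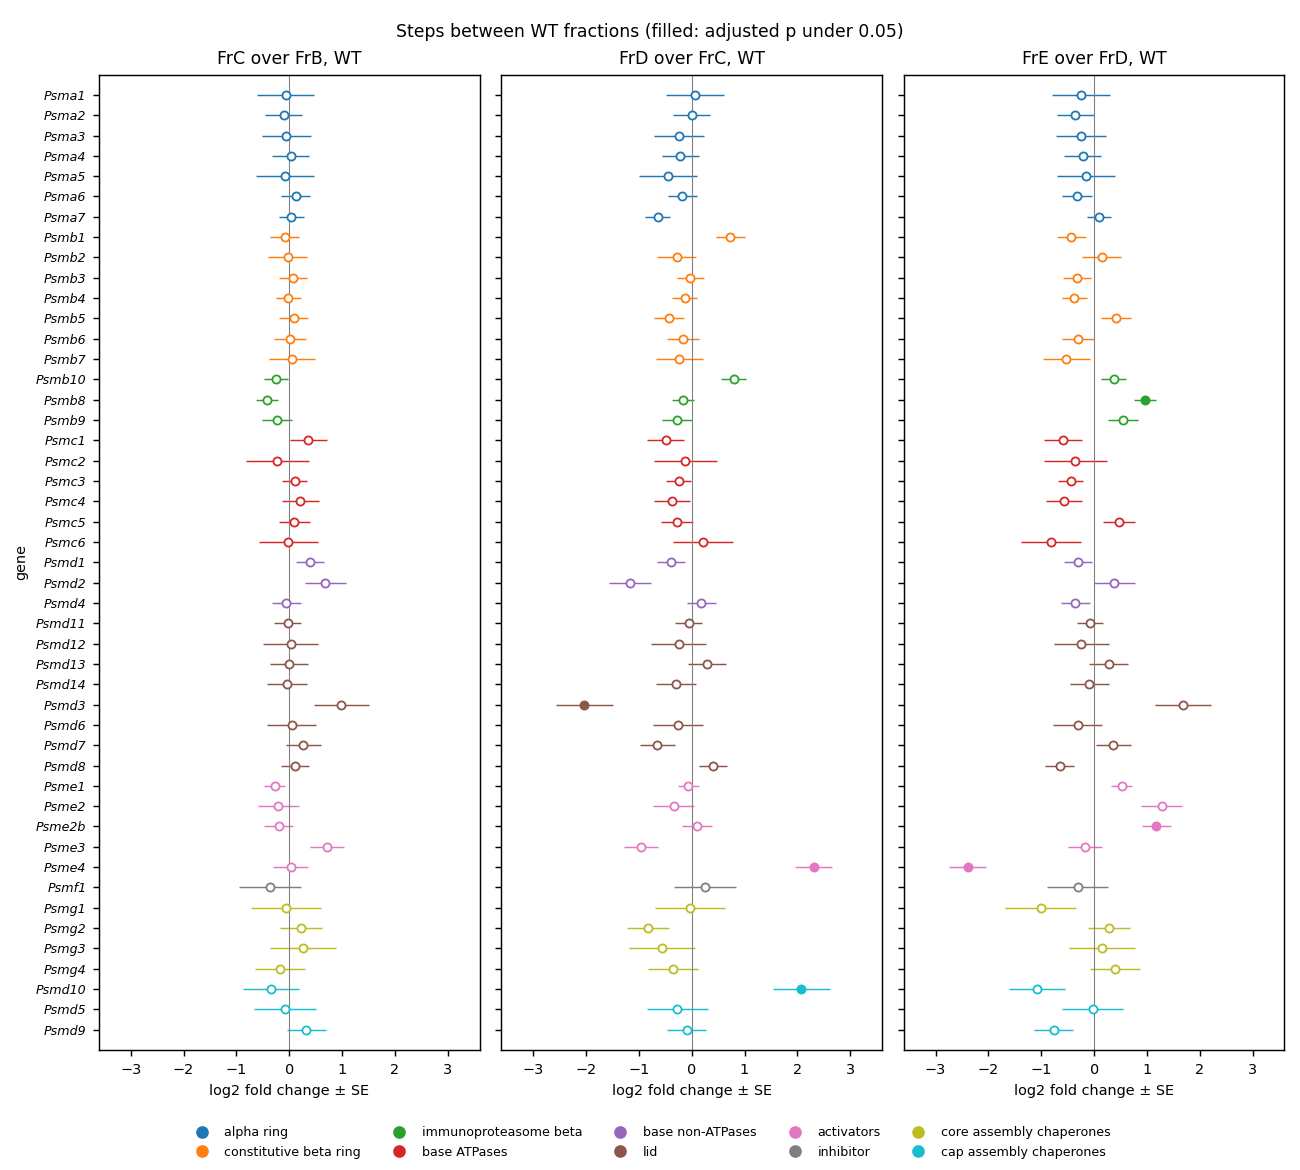
Log2 fold change with SE of each tested member at the 3 steps of the WT series, later fraction over earlier, by class; filled points are called at an adjusted p under 0.05. Psme4 is far right at FrC to FrD (2.31) and far left at FrD to FrE (-2.39), and most core genes lie near 0.

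Other genes of the pathway moved in part. At the WT FrD to FrE step 2 of 13 MHC class I loading genes rose, the chaperone Calr (1.31, edgeR adjusted p = 0.00298) and the loading-complex gene Tapbp (1.27, adjusted p = 0.0128), with a list median of 0.78. Of 5 genes around NRF1, the factor that raises proteasome genes when degradation is blocked, Nfe2l1 itself rose (4.72, adjusted p = 0.0187). None of 9 proteasome genes with other symbols and none of 11 ubiquitin and shuttle genes was called at any WT step. Proliferation genes fell in 6 of 17 from FrD to FrE and in none of 17 at the steps before.

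The second question is whether the mutation changes the members within a fraction, with 5 mutant and 5 WT libraries each. In FrB the mutants had 1 of 49 members higher (5.64% of all genes were) and 1 lower (1.72% of all genes were, 7.37% in either direction), and both calls disappear without the low-complexity libraries. The median log2 fold change, mutant over WT, was -0.32 over members and 0.11 over all genes, with 36 members below 0. Under ERCC scaling the member median was 0.22, with 32 members above 0, beside 0.59 over all genes. Without the low-complexity libraries it was -0.0008, with 24 above 0, beside -0.16 over all genes.

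Psmd3 had 375, 100.0, 584, 189 and 326 CPM in mutant FrB and 64.1, 63.2, 88.6, 51.8 and 50.01 CPM in WT FrB, with no overlap (2.81 ± 0.54, edgeR adjusted p = 0.00825). The alpha subunit gene Psma1 (chromosome 7, 114264606 to 114276118, minus strand) had 129, 689, 140, 199 and 156 CPM in mutant FrB and 848, 834, 770, 733 and 670 CPM in WT FrB (-1.37 ± 0.38, edgeR adjusted p = 0.0383). The groups of Psma1 overlap in mouse 5 alone, whose FrB library is the 1 mutant FrB library of normal complexity. That library alone against WT, taken to vary as WT libraries do, gave log2 fold changes of 0.59 for Psmd3 (adjusted p = 0.543) and -0.23 for Psma1 (adjusted p = 0.714). Without mouse 5, 11 of 49 members (18.0% of all genes) were called and Psma1 had -1.86, and without any mouse but 5 or 8 the Psma1 call was lost (adjusted p up to 0.0973). It was also lost with DESeq2's size factors (adjusted p = 0.0605), with all 8 groups in the fit (adjusted p = 0.108) and with ERCC scaling (adjusted p = 0.679). Complexity and genotype cannot be told apart in FrB. Granulocyte and monocyte markers (2574 CPM in mouse 5, 17517 to 58680 CPM in the other 4 mutants, 128 to 11508 CPM in WT) moved with both. Plasma cell markers were lower in mutant FrB (948 to 12864 CPM) than in WT FrB (17778 to 52994 CPM), with 2 of 8 called lower. Mouse 5 had 11870 CPM of them, within the range of the other mutants. Of 13 stage genes 3 were called higher and 3 lower, and of 17 proliferation genes 4 were called higher. The part of these lists in the result was not tested.

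Among the named members, Psmb8, Psmb9, Psmb10, Psme1, Psme2, Psme3 and Psme4 were uncalled in FrB, with log2 fold changes of -0.36 to 0.60. Psmb5, Psmb6 and Psmb7 had -0.47, -0.13 and -1.25. In the other lists, 3 of 13 MHC class I loading genes were called lower in mutant FrB, namely B2m (-1.67), H2-D1 (-1.20) and Pdia3 (-1.71). The median over all 13 was 0.16, with a range of -1.71 to 2.18. Of the 5 NRF1 genes 3 were called higher, namely Nfe2l1 (3.70), Ddi2 (3.41) and Vcp (1.93), and the list ran from -1.70 to 3.70. So were the lid gene Sem1 (1.38) and the ubiquitin shuttles Rad23b (1.94) and Ubqln2 (2.98). Their lists ran from -1.87 to 1.67 (9 proteasome genes with other symbols) and from -1.63 to 2.98 (11 ubiquitin and shuttle genes). The edgeR adjusted p of the called genes ran from 0.00442 to 0.0343, and 4 of the 5 mutant libraries behind them are of low complexity.

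In FrC edgeR called no member and no gene (0.0%). At an unadjusted p under 0.05, edgeR gave 3 of 48 members higher and 0 lower (11.3% of all genes passed in either direction). DESeq2 called 0 members, with 174 of all 10299 genes higher and 0 lower. Mutant mouse 9 stood apart: its library of 1723215 counts had 3987 CPM of the ATPase gene Psmc6, 2845 CPM of Psmb7 and 951 CPM of Psmb5, while the other 4 mutants had 58.9 to 330.3, 132 to 665 and 214 to 527 CPM, and WT had 227 to 436, 427 to 627 and 341 to 421 CPM. The same library had 80156 CPM of 9 erythroid markers, whose part in these values was not tested. The log2 fold changes were 4.21 ± 1.58 for Psmc6, 3.29 ± 1.27 for Psmb7 and 2.20 ± 0.93 for Psmb5 (adjusted p 0.296 to 0.367). Psmb6, Psmb8, Psmb9, Psmb10 and Psme1 to Psme4 lay between -0.29 and 0.24.

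In FrD no member was called, and 0.00996% of all genes were. An unadjusted p under 0.05 in edgeR was found for 1 member higher and 3 lower of 48 (5.28% of all genes). DESeq2 called 0 members, with 38 of all 10043 genes higher and 31 lower. The median was -0.19 over members and -0.07 over all genes. Under ERCC scaling it was 0.33 over members, with 42 of 48 above 0, and 0.39 over all genes. Psme4 had 201, 83.2, 127, 141 and 170.3 CPM in mutant FrD and 253, 244, 435, 308 and 235 CPM in WT FrD, with no overlap and a log2 fold change of -1.30 ± 0.35 (adjusted p = 0.518). The remaining catalytic and activator genes ranged from -0.57 (Psmb10) to 0.16 (Psme2).

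In FrE edgeR called no member and no gene (0.0%). In edgeR, 1 of 48 was higher and 4 were lower at an unadjusted p under 0.05 (5.3% of all genes passed). DESeq2 called 0 members, with 22 of all 9662 genes higher and 36 lower. Psme4 had 234, 161, 139, 142 and 177 CPM in mutant FrE and 83.4, 50.4, 94.0, 51.3 and 29.6 CPM in WT FrE. The groups do not overlap, with the mutants higher, opposite to FrD (1.32 ± 0.40, adjusted p = 0.595). Psmb8 had 848, 784, 859, 1069 and 772 CPM in mutant FrE and 1503, 1692, 1201, 1064 and 1347 CPM in WT FrE. The mutant library of mouse 9, with 42111 counts, lies above the lowest WT library, and the log2 fold change was -0.89 ± 0.25 (adjusted p = 0.463). Psmb9 had -0.79 ± 0.30, Psmb10 -0.47 ± 0.28 and Psmb5 -0.78 ± 0.38, and Psmb6, Psmb7 and Psme1 to Psme3 lay between -0.42 and 0.16. As a sum, the immunoproteasome genes held 1584 ± 151 CPM in mutant FrE and 2293 ± 280 CPM in WT FrE (SD, n = 5 each), with no overlap. Plasma cell markers held 2040 to 2856 CPM in mutant FrE and 1186 to 23615 CPM in WT FrE. The stage genes had a median sum of 9904 CPM in mutant FrE and 22859 CPM in WT FrE, and the granulocyte and monocyte markers of 1542 CPM in mutant FrE and 118 CPM in WT FrE. No gene of these lists was called, and their part was not tested. Psmb9 and Psmb8 lie 150 and 166 kb from Slc39a7 on chromosome 17.

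**Figure D4:**
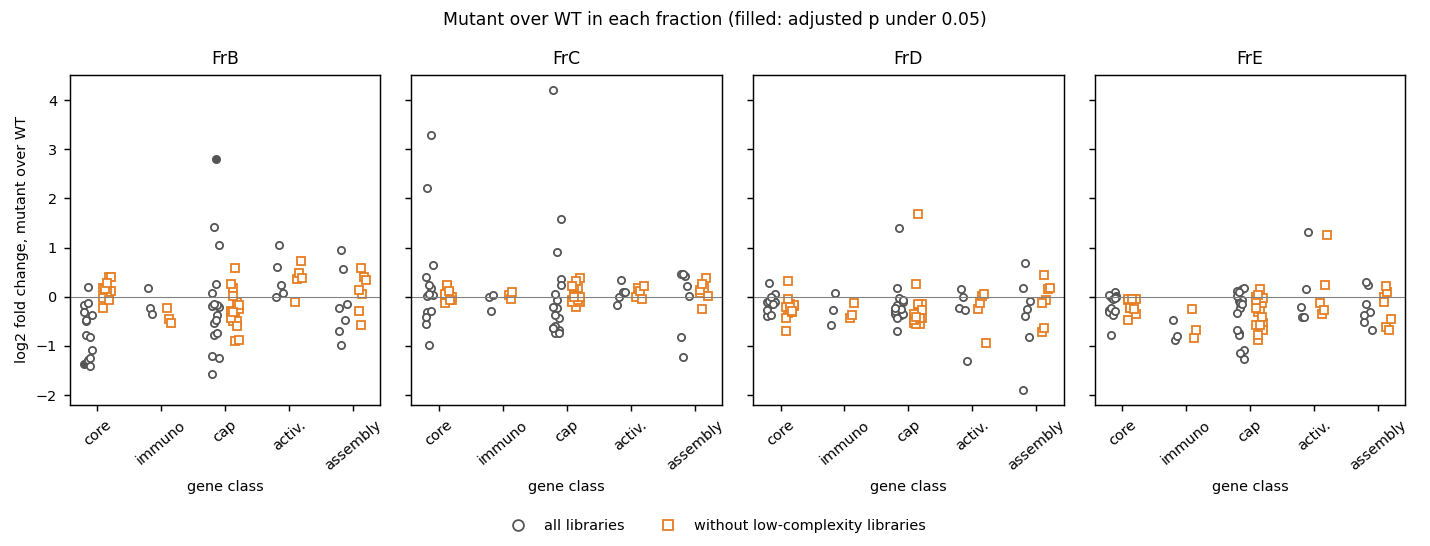
Log2 fold change of each member, mutant over WT, by class in the 4 fractions, from all libraries and without the low-complexity ones. In FrB the member median is -0.32 with all libraries and near 0 without the low-complexity ones.

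The third question is whether the steps differ between genotypes. In the mutants no member was called from FrB to FrC (0.0% of genes), with 6 of 48 higher and 0 lower at an unadjusted p under 0.05 in edgeR (16.0% of all genes passed) and 1 called by DESeq2 (3.34% of all genes). Psmb5 (2.97) and Psmb7 (4.84) had an adjusted p of 0.0762 there and log2 fold changes of 0.51 and 1.39 without mouse 9, and the other catalytic and activator genes lay between -0.79 and 0.55. From FrD to FrE none was called (0.0% of genes), with 0 at an unadjusted p under 0.05 in edgeR (5.5% of all genes passed). DESeq2 called 0 members there, with 28 of all 11197 genes higher and 70 lower. The named genes lay between -0.41 (Psmb7) and 0.79 (Psme2b). From FrC to FrD none rose (0.402% of all genes did) and 2 of 48 fell (2.56% of all genes did): Psmb5 (-2.92 ± 0.76, edgeR adjusted p = 0.0387) and Psmb7 (-3.89 ± 1.07, adjusted p = 0.0468). Under ERCC scaling 28 of 48 members fell, where 28.8% of all genes were called in either direction. The medians were then -2.40 over members and -2.29 over all genes. Psmb5 had 243, 203, 279, 294 and 316 CPM in mutant FrD and 527, 214, 391, 951 and 343 CPM in mutant FrC. Psmb7 had 449, 390.2, 330, 304 and 346 CPM in mutant FrD and 528, 132, 398, 2845 and 665 CPM in mutant FrC. Both overlap between the fractions, and the high values are again mouse 9. Without mouse 9 the values were -0.63 (adjusted p = 0.632) and -0.35 (adjusted p = 0.936), with mouse as a block -2.002 (adjusted p = 0.376) and -2.16 (adjusted p = 0.505). No mouse could be left out with either call kept. DESeq2, which gave no adjusted p for 4 of the 48, called 0 members, with 109 of all 11197 genes higher and 364 lower. Psmb6, Psmb8, Psmb9, Psmb10, Psme1 and Psme2 lay between -0.40 and 0.26, and Psme3 had -1.29 ± 0.55 (adjusted p = 0.235).

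Psme4 followed another course in the mutants. From FrC to FrD its log2 fold change was 0.92 ± 0.48 in the mutants (adjusted p = 0.375) and 2.31 in WT, and from FrD to FrE it was 0.23 ± 0.48 in the mutants (uncalled) and -2.39 in WT. The difference between genotypes in the FrD to FrE step was tested on all 40 libraries and was 2.62 ± 0.56 (edgeR adjusted p = 0.0375). It was the 1 of 49 members higher in that test, where 0.0565% of all 12397 genes were, and none was lower (0.0968% of all genes were). Without the low-complexity libraries it was 2.23 (adjusted p = 0.00135). With mouse as a block it was 2.63 (adjusted p = 0.121), and without the filter on low counts 2.58 (adjusted p = 0.0753). Leaving out 1 mouse gave 2.44 to 2.86 with the call kept without mouse 9 (adjusted p = 0.0321) and lost without any other mouse (adjusted p 0.0622 to 0.106). For the FrC to FrD step the difference was -1.42 ± 0.56 (adjusted p = 0.172).

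Some markers of the pre-B stage moved in the same direction. Over the list of 13 stage genes the differences in the FrD to FrE step ran from -3.91 to 5.12. Their median was 1.11, and 0 were called lower. Of 13 stage genes 3 were called higher in the same test, the recombinase genes Rag1 (4.79, edgeR adjusted p = 0.0353) and Rag2 (5.12, adjusted p = 0.0494) and the IL-7 receptor gene Il7r (3.25, adjusted p = 0.0405). Rag1 had 76.4 ± 31.7 CPM in mutant FrE and 5.32 ± 5.43 CPM in WT FrE (SD, n = 5 each), beside 146 ± 61.9 CPM in mutant FrD and 259 ± 60.8 CPM in WT FrD. The part of these markers in the Psme4 result was not tested.

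The other called step differences rest on mutant FrC of mouse 9. Psmb7 differed in the FrB to FrC step by 4.81 ± 1.17 (edgeR adjusted p = 0.0438, where 0.524% of all genes were called higher), and by 1.34 without mouse 9, -0.04 without the low-complexity libraries and 3.397 with mouse as a block (adjusted p = 0.803). Psmc6 differed in the FrC to FrD step by -4.87 ± 1.41 (adjusted p = 0.0492, where 2.71% of all genes were called lower), and by 0.44 without mouse 9 and -1.70 with mouse as a block (adjusted p = 0.941). Leaving out any WT mouse also ended both calls (adjusted p 0.155 to 0.172 for Psmb7 and 0.0865 to 0.153 for Psmc6), as did mutant mouse 8 for Psmc6 (adjusted p = 0.0537). No member was called in the other direction at these steps (0.0% of all genes lower at the first, 0.274% higher at the second). Psmb5 had differences of 2.91 and -2.55 (adjusted p = 0.0736 and 0.068), which were 0.42 and -0.23 without mouse 9. Of the other named members the differences at the FrD to FrE step ran from -0.88 (Psmb9) to 0.43 (Psme3), none called.

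The balance of immunoproteasome to constitutive catalytic genes can be read within a library as a ratio of CPM per kb. It does not depend on scaling between libraries. The ratio of Psmb8 to Psmb5 had WT medians of 1.83, 1.25, 1.49 and 2.68 in FrB, FrC, FrD and FrE. In FrE it was 1.77 to 3.55 (median 2.02) in the mutants and 1.30 to 3.86 in WT, and the groups overlap. Of the 50-base stretches of Psmb5, 57.1% also occur in other genes, the pseudogene Psmb5-ps among them, so that ratio is uncertain. Psmb9 to Psmb6 was 0.253 to 0.333 in mutant FrE and 0.349 to 0.773 in WT FrE, without overlap, and 0.261 to 0.387 in mutant FrD and 0.257 to 0.326 in WT FrD. Reads of Psmb9 and of the overlapping Tap1 cannot be told apart, so this ratio is uncertain as well. Psmb10 to Psmb7 had medians of 1.51 in mutant FrE and 1.46 in WT FrE, and of 0.523 in mutant FrC and 0.519 in WT FrC. These ratios carry no test.

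**Figure D5:**
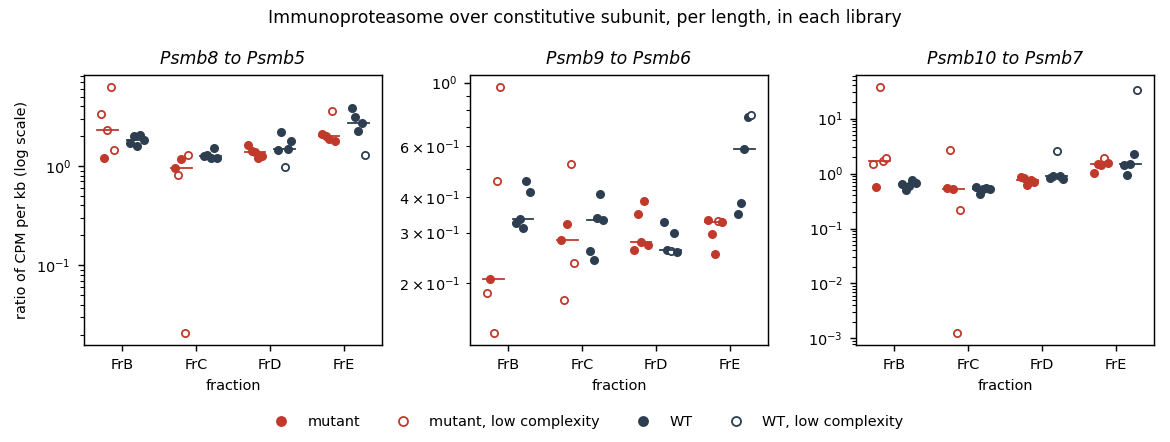
Ratio of CPM per kb of each immunoproteasome gene to its constitutive counterpart in every library by fraction, on a log axis. Mutants are left of WT, and open points are low-complexity libraries. The Psmb9 to Psmb6 ratio of WT FrE (0.349 to 0.773) lies above that of mutant FrE (0.253 to 0.333).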

How the data were processed

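RNA was counted in 40 Smart-seq2 libraries with ERCC spike-in RNA, per the labels' protocols. The authors deposited 1 table of raw gene counts. HISAT2 2.1.0, featureCounts 1.4.6, Subread, DESeq2 and build mm10 are named in the submitters' processing notes. No source used here gives the annotation release or strand setting, so overlapping genes on opposite strands cannot be told apart. Of 22050 rows, 92 are spike-ins, and 21728 of the 21958 gene rows matched GENCODE M21, with 0.0325% of counts in unmatched rows.

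Endogenous counts were fitted with the two-sided quasi-likelihood test of edgeR 4.0.16 (limma 3.58.1, R 4.3.3, Python 3.11.15; TMM, filterByExpr with a minimum count of 10 and total of 15), and calls have a Benjamini-Hochberg adjusted p under 0.05 over all genes tested. Genotypes were compared on the 10 libraries of a fraction, steps on the 20 libraries of a genotype without a block, and step differences on all 40. Of the 50 members 48 or 49 passed the filter. A mouse number in the titles marks the animal, which gave 1 library per fraction. Their deviations correlated by medians of -0.02 to 0.09, so the pairing rests on the animal. The highest correlation between libraries was 0.98, and 0 pairs were identical.

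Alternatives were DESeq2's size factors, ERCC scaling, the DESeq2 1.42.0 test, no filter, all 8 groups in the fit, mouse as a block, the second-index set as a covariate, leaving out the low-complexity libraries, and leaving out each mouse. Named genes are the members called in a comparison and, in each comparison, Psmb5 to Psmb10 and Psme1 to Psme4. Lengths are of the principal transcript. Members, lists and rules were chosen with earlier results of these data known. The fits were tested on simulated data. Reads carry no molecular identifiers, so depth bounds counting error only. Shfm1, Psme3ip1, Paaf1, Ighm, Ighd, Trbc1 and Trbc2 are not analysed here. A stage marker and a promoter motif are not reported here.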

Additional observations from a re-analysis of the deposited data

Results flagged for a closer look

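A sample was looked at again where it lay far from the other 4 of its group by Dixon's ratio, which chance alone exceeds in about 1 in 20 groups. The genes were the 9 members called in any comparison, over 8 groups, and 11 of 72 combinations of gene and group had one. These members were picked by calls on the same values, so that share cannot be set against the chance rate. Of the 11 outlying values, 9 come from low-complexity libraries or from the 1 mutant FrB library that is not of low complexity. In mutant FrC mouse 9 had 2845 CPM of Psmb7 and 3987 CPM of Psmc6. In mutant FrB mouse 5 had 689 CPM of Psma1 and 269 CPM of Psmc6. In WT FrD mouse 3 had 36.4 CPM of Psma1, 96.8 CPM of Psmc6 and 831 CPM of Psmd10. In WT FrE mouse 7 had 572 CPM of Psmb5, and in mutant FrE mouse 9 had 285 CPM of Psme2b. The others were mutant FrD of mouse 5, with 150.1 CPM of Psme2b, and WT FrC of mouse 2, with 627 CPM of Psmb7.

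Steps that differed between mutant and WT by a test of the difference itself (edgeR on all 40 libraries) were those of Psme4 from FrD to FrE, by 2.62 on the log2 scale, of Psmb7 from FrB to FrC, by 4.81, and of Psmc6 from FrC to FrD, by -4.87. The Psmb7 and Psmc6 differences rest on mutant mouse 9 and were 1.34 and 0.44 without it.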

How the results depend on the processing

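Of 473 values of single members recomputed under an alternative, 407 kept direction and side of the threshold, 25 lost and 26 gained a call, and 15 changed sign; the cause was not tested beyond what each alternative removes. Counts of members called that moved by over 1.5 times were as follows. The fits tested 11439 genes in WT, 10562 for genotype FrB, 11197 in the mutants and 12397 for step differences. With ERCC scaling the member counts were 47 (WT FrC to FrD, main 3), 0 (WT FrD to FrE, main 3), 1 (genotype FrB, main 2) and 28 (mutant FrC to FrD, main 2). Over all genes 40, 177, 124 and 29 were called higher and 6596, 62, 24 and 3192 lower. With the DESeq2 test the member counts were 7 (WT FrD to FrE), 1 (mutant FrB to FrC, main 0), 0 (mutant FrC to FrD) and 3 (step difference FrD to FrE, main 1). Over all genes 842, 195, 109 and 133 were called higher and 630, 179, 364 and 340 lower. With DESeq2's size factors the member counts were 1 (genotype FrB), 3 and 3 (step differences FrB to FrC and FrC to FrD, main 1 each). Over all genes 652, 185 and 43 were then called higher (main 596, 65 and 34). For genotype FrB and the FrB to FrC difference 167 and 2 were lower (main 182 and 0). More genes were lower in the FrC to FrD difference than the 336 of the main fit. Calls over all genes thus rose at both step differences as well. With all 8 groups in the fit the member counts were 1 and 1 (WT FrC to FrD, FrD to FrE), 1 and 3 (genotype FrB, FrC), 5 and 4 (mutant FrB to FrC, FrC to FrD). Of all 12397 genes 85, 131, 390, 618, 482 and 163 were called higher and 90, 123, 166, 9, 135 and 825 lower. Without the filter, 41 of 18087 genes were higher and 174 lower at mutant FrC to FrD. At the step differences in order, 0, 15 and 3 of 19054 genes were higher and 0, 204 and 9 lower. The member counts were 1 (mutant FrC to FrD) and 0 for each step difference. Without the low-complexity libraries they were 9 and 5 (WT FrC to FrD, FrD to FrE), and 0 for mutant FrC to FrD and the step difference FrC to FrD. Of all 11657 genes 996 were then higher and 878 lower at WT FrC to FrD (16.1%). At WT FrD to FrE 536 were lower (main 278), and the number higher also rose above the main 330. At mutant FrC to FrD 86 of 13076 genes were higher and 34 lower, and in the FrC to FrD difference none was called. Genotype FrB and the FrB to FrC difference then rest on 1 mutant FrB library, so their counts cannot be read.

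With mouse as a replicate block, the pairing by animal left 0 member calls at mutant FrC to FrD and at each step difference. Over all genes 1, 0, 1 and 0 were called there. Psmd10 lost its call at WT FrC to FrD, where 2 members were called, with 234 of all genes higher and 211 lower. The block changed no other call of a named member. Leaving out 1 mouse gave 1 to 3 calls at WT FrC to FrD, 1 to 4 at WT FrD to FrE, 1 to 11 for genotype FrB, 0 to 4 at mutant FrB to FrC, 0 to 0 at mutant FrC to FrD, and 0 to 5, 0 to 3 and 0 to 1 for the step differences in order. The highest of these came without mouse 5 for genotype FrB, mutant FrB to FrC and the first 2 step differences. Over all genes 1071, 143, 352 and 26 were then called higher and 866, 51, 29 and 374 lower. At the WT steps the highest came without mouse 7 (FrC to FrD) and mouse 3 (FrD to FrE). There 395 and 289 of all genes were called higher and 274 and 182 lower.

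The member median moved by more than 1 SD between replicates with ERCC scaling to 0.75, -2.85 (WT FrB to FrC, FrC to FrD), 0.22, 0.33 (genotype FrB, FrD), -2.40 and -0.51 (mutant FrC to FrD, FrD to FrE), and without the low-complexity libraries to -0.0008 for genotype FrB. Within 1 SD, ERCC scaling gave 0.23 at WT FrD to FrE (main -0.25) and 0.51 at mutant FrB to FrC (main 0.21). Over all genes, ERCC scaling gave medians of 0.74, -2.39, 0.59, 0.39, -2.29, -0.37, 0.29 and 0.46 in the order of these comparisons. Signs changed with ERCC scaling for Psmd10 (-0.056), Psmb10 (-1.66) and Psme4 (-0.033) at WT FrC to FrD, Psmb6 (0.21) at WT FrD to FrE, and Psme4 (-0.072) and Psme3 (-0.058) at mutant FrD to FrE. Without the low-complexity libraries they changed for Psmb7 (-0.062) and Psmc6 (-0.094) in genotype FrC, Psmb5 (-0.0019) and Psme3 (0.15) at WT FrD to FrE, and Psmb7 (-0.036) and Psmb6 (0.18) in the FrB to FrC and FrD to FrE step differences. Psme1 in the FrD to FrE difference had -0.033, -0.023 and -0.055 with DESeq2's size factors, its test and the block. Leaving out 1 mouse changed signs within -0.079 to 0.35 (Psmb10), -0.29 to 0.17 (Psmb6), -0.25 to 0.46 (Psmb7) and -0.12 to 0.13 (Psme1) in the FrD to FrE difference, -0.28 to 0.10 (Psmb6) and -0.31 to 0.25 (Psmb7) in genotype FrE, -0.042 to 0.63 (Psmb5) and -0.37 to 0.14 (Psme3) at WT FrD to FrE, -0.021 to 0.59 (Psme3) and -5.20 to 0.67 (Psmc6) at the mutant FrD to FrE and FrC to FrD steps, -0.65 to 4.504 (Psmc6) in genotype FrC, and -5.47 to 0.44 (Psmc6) in the FrC to FrD difference.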

Other observations

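The interferon-stimulated response element was the one searched whose share among member windows exceeded that of all windows by the widest margin: 11.1% of the 45 member windows and 3.44% of all 32851 windows held it on either strand. The 5 members are Psmb3, Psmd4, Psmd9, Psme1 and Psmg4, and no test was run on this share.

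The WT libraries also differed in endogenous RNA relative to the ERCC spike-ins. Mean log2 ratios were 10.001 ± 0.87 in FrB, 10.6 ± 0.89 in FrC, 8.41 ± 1.01 in FrD and 8.80 ± 0.40 in FrE (SD, n = 5 each). Mice 6 and 7 had 9.02 and 9.09 in FrB, where mice 1, 2 and 3 had 10.6 to 10.8. They had 9.68 and 9.71 in FrC (the others 11.1 to 11.6), and 7.82 and 6.98 in FrD (the others 8.77 to 9.54). In FrE the ratios of these mice overlapped. On the spike-in scale 47 of 49 members fell from FrC to FrD, as did 6596 of the 11439 genes tested.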
